A study of Mus musculus with 4 samples.

Results

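Of 415749 usable probes, 99 lay at 5 of 7 small imprinted loci of the mouse, which were chosen by the position of their probes on build mm9. Zrsr1 (chromosome 11) had 37 probes, Mcts2 (chromosome 2) 20, Slc38a4 (chromosome 15) 19, Nap1l5 (chromosome 6) 13 and Impact (chromosome 18) 10. The windows of Inpp5f (chromosome 7) and Peg13 (chromosome 15) held 0 probes and are not described further. No probe of these loci was left out for low signal or an outlier flag. DNA methylation had been profiled in fetal liver of C57BL/6J mice, in a food restricted group and a control group. Between gestation days 10 and 17 the food restricted dams were fed 50% of what the control dams, which ate freely, consumed. Livers of both groups were from gestation day 18. Each group was 1 pool of liver DNA described as N = 6, and the labels do not say whether this counts fetuses or litters. Methylated DNA was precipitated from each pool and hybridised beside total genomic DNA of that pool on 2-colour tiling arrays. Each pool had 2 arrays with the dyes exchanged, and each of 2 slides carried both pools in 1 dye orientation.

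An imprinted gene is expressed mainly from the copy inherited from one parent. At each of these loci a CpG-rich stretch is known to be methylated on the maternal copy and unmethylated on the paternal copy. The mark is set in the oocyte. Expression was not measured here. Zrsr1, Nap1l5 and Mcts2 are retrogenes, copies made through an RNA intermediate that lie inside host genes (Commd1, Herc3 and H13). Zrsr1 belongs to a family of splicing factors, Nap1l5 to the nucleosome assembly proteins, and Mcts2 resembles Mcts1, a factor that binds ribosomes. Impact restrains the amino acid sensing kinase Gcn2, and Slc38a4 is an amino acid transporter made in liver and placenta. The array reads both parental copies together, so it cannot show which copy was methylated.

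The precipitation responds to methylated CpG dinucleotides, so the promoters of the retrogenes are shown with each CG in capitals. They are taken from RefSeq on GRCm38.p6 (300 bases across the gene's start, 5′ to 3′ on the gene's strand), a later build than that of the probes, and were not lined up with the probes. Mcts2 lies at chr2:152686898-152687197 (+), Nap1l5 at chr6:58907077-58907376 (-) and Zrsr1 at chr11:22971755-22972054 (+).
Mcts2: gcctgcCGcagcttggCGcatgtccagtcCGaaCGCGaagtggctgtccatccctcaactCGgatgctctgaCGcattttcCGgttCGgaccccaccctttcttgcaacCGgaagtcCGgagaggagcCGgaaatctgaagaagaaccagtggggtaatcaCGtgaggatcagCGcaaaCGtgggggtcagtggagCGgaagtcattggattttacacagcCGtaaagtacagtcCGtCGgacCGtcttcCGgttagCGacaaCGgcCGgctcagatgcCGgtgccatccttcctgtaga
Nap1l5: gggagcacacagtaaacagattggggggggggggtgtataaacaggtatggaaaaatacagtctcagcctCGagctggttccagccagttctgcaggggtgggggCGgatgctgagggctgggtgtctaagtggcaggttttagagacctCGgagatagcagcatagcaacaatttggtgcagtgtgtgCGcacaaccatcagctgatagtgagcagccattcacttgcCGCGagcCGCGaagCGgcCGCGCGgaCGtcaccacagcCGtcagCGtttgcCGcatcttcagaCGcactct
Zrsr1: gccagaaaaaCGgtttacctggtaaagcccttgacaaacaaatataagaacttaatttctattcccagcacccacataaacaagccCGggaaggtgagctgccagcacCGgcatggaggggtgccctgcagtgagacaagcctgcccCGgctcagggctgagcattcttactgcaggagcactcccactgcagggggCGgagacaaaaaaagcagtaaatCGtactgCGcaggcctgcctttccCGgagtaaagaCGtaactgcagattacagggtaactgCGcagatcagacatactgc
The Mcts2 promoter held 25 CG in 300 bases, a number reached by 18.4% of 32851 RefSeq promoters. Nap1l5 had 17, reached by 31.4%, and Zrsr1 had 10, reached by 43.5%. Each of the 3 RefSeq starts of Slc38a4 had 5 CG, against a median of 7 over all promoters. Of the 7 loci, Impact and Peg13 had no entry.

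The measure of enrichment, M, is immunoprecipitated over total DNA on the log2 scale, centred per array so that 0 is the middle probe. M rises with both methylation and CpG density and is not a percentage of methylated cytosines. The difference D subtracts the control pool's M from the food restricted pool's M within a slide. A region (at least 3 probes, neighbouring starts at most 500 bp apart, at most 2000 bp long) counted as higher or lower when D on both slides reached 0.5 (1.41-fold) in one direction. Because each group was 1 pool and its arrays were technical repeats, no test was made and the value on every array is given. The immunoprecipitated signal was well above background at 89 and 91 of the 99 probes in the food restricted pool (slides 1 and 2) and at 85 and 82 in the control pool. No probe of the loci was saturated.

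The sources disagree on which arrays belong to which pool. The deposited value table exchanges the food restricted array of slide 1 with the control array of slide 2: each of these columns equals the other's scanner file within 0.001 at 100% of probes. The scanner files are used here because the direction of their ratios matches the dyes named in the titles. If the value table's columns were right, both control arrays would lie on slide 1 and both food restricted arrays on slide 2, and pool, slide and dye could not be told apart. The main differences are therefore also given under the value table's assignment, where arrays at the same position of the slides are paired (position 1, then position 2). In both readings M was turned by the dye that the title of the scanner file's sample names. The titles of the 2 exchanged columns name the opposite dye. With M so turned, the levels on the 4 arrays do not rest on this choice, but the pool named beside an array does. By the scanner files the control pool lay at position 1 and the food restricted pool at position 2 of both slides, so pool and position cannot be told apart.

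All 5 loci carried a stretch of strong enrichment that stood out on all 4 arrays. Of the 99 probes, 48 (48.5%) had M above 2, which is 4-fold above the middle of the array, on every array, against 15.7% of all probes. Across the 99 probes M correlated at 0.96 between the food restricted arrays and 0.91 between the control arrays, and at 0.96 and 0.97 between the pools on slides 1 and 2. These correlations run over neighbouring probes that share fragments and are given as a description.

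**Figure D1:**
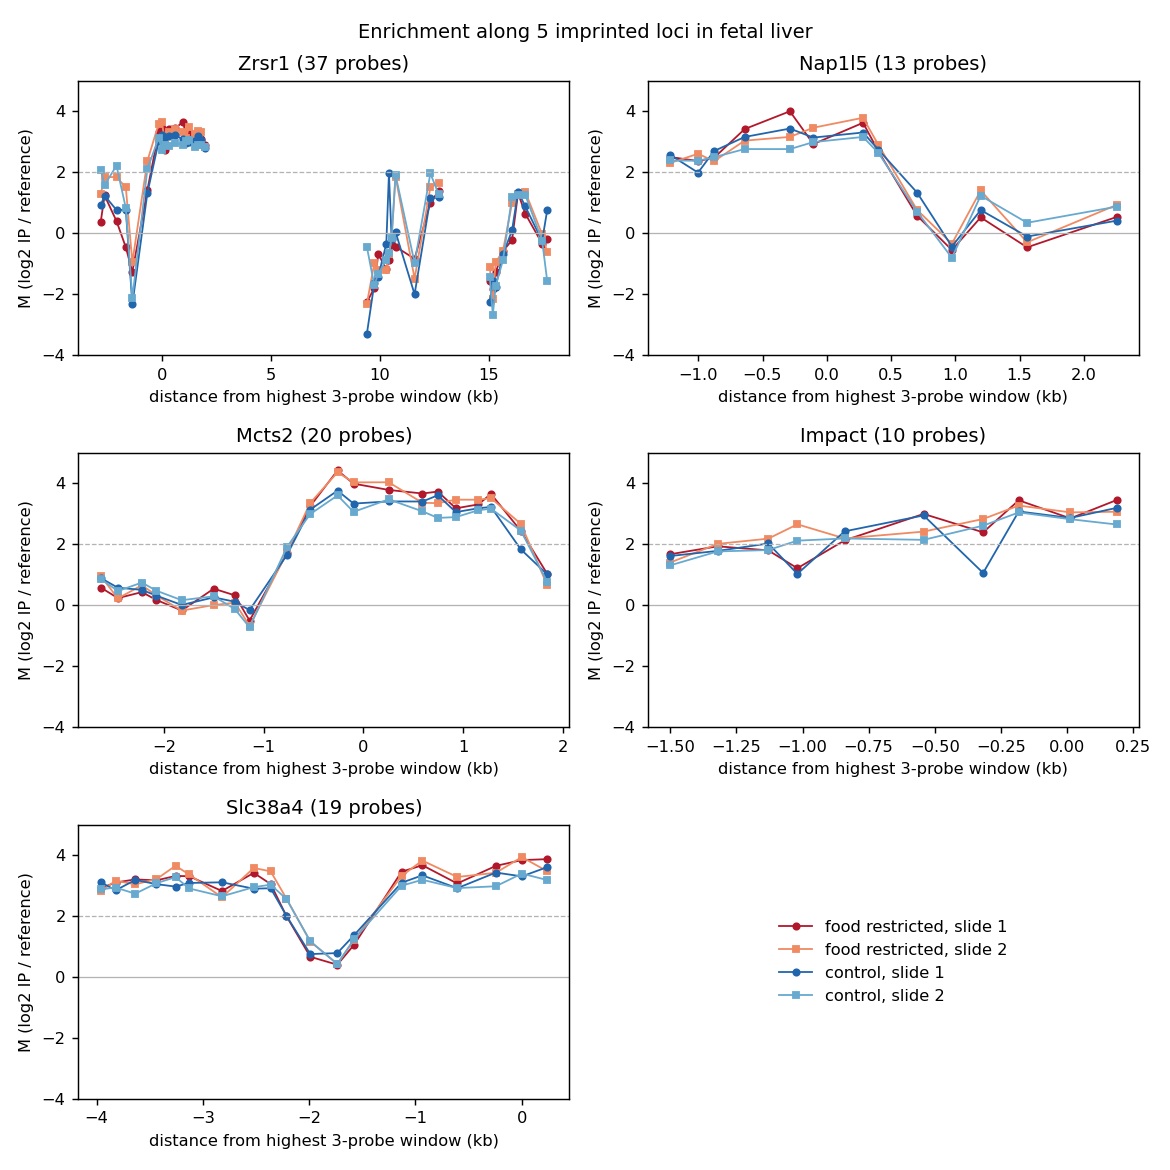
M of each probe (y axis, log2) along 5 imprinted loci, against the distance in kb from the 3 neighbouring probes with the highest mean M (x axis); each line is 1 array, broken where probes lie over 1 kb apart, and the dashed line marks M of 2. The 4 arrays follow one another through each stretch of high M, through the dip of Slc38a4 and through the falls at the edges of Mcts2 and Nap1l5.

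At Zrsr1 the stretch above M 2 on all arrays covered 12 probes from 22872000 to 22874172. A stretch was ended where probe starts lay over 500 bp apart. Its median M was 3.33 and 3.33 in the food restricted pool and 3.08 and 2.91 in the control pool. Within the stretch probes ranged from 2.73 to 3.67 on the food restricted array of slide 1 and from 2.79 to 3.23 on the control array of that slide. The food restricted arrays thus lay above both control arrays in the median, while the ranges over probes overlapped. None of the 25 other probes of the window was above M 2 on all arrays. The nearest one, at 22871476, had M of 1.41 and 2.37 in the food restricted pool and 1.32 and 2.10 in the control pool, so it was above 2 on slide 2 alone. Beyond 22874172 the next probe started at 22881536, so the end of the enrichment was not covered there. The 7 probes from 22881536 to 22882910 had a median M of -0.87 and -0.97 in the food restricted pool and -0.34 and -0.63 in the control pool.

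At Mcts2 enrichment began abruptly. The probe at 152510934 had M of -0.51 and -0.68 in the food restricted pool and -0.16 and -0.73 in the control pool. The probe at 152511535 already had 3.25 and 3.35 in the food restricted pool and 3.13 and 2.99 in the control pool. All 4 arrays therefore passed from below the middle of the array to strong enrichment over these few probes. The stretch ran over 9 probes from 152511535 to 152513401. It held the highest probe of all 5 loci, at 152511813, with M of 4.42 and 4.36 in the food restricted pool and 3.76 and 3.60 in the control pool. Both food restricted values lay above both control values there.

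At Nap1l5 the stretch shared by all arrays held 6 probes from 58856423 to 58857755, with a median M of 3.18 and 3.10 in the food restricted pool and 3.15 and 2.77 in the control pool. The control value of slide 1 lay between the 2 food restricted values. Beyond it enrichment ended: the probe at 58858269 had M of -0.55 and -0.34 in the food restricted pool and -0.43 and -0.80 in the control pool. At the other end the first probe of the window, at 58856077, was still above M 2 on all arrays, so the end of the enrichment was not covered there.

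Slc38a4, the transporter gene, had 2 stretches separated by a dip. The first, 9 probes from 96885528 to 96887174, had a median M of 3.17 and 3.21 in the food restricted pool and 3.05 and 2.93 in the control pool. The second, 6 probes from 96888354 to 96889781, had 3.66 and 3.45 in the food restricted pool and 3.32 and 3.09 in the control pool. In both stretches the food restricted medians lay above the control medians. Between them the probe at 96887749 fell to M of 0.40 and 0.43 in the food restricted pool and 0.78 and 0.42 in the control pool. Its immunoprecipitated signal was well above background on all 4 arrays. The dip was thus present in both pools, with the control array of slide 1 somewhat above the others. The first and the last probe of the window were above M 2 on all arrays, so neither end of the enrichment was covered.

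At Impact M climbed unevenly along the 10 probes to the last 3, from 13131281 to 13131699, whose median was 3.44 and 3.07 in the food restricted pool and 3.08 and 2.82 in the control pool. The food restricted value of slide 2 and the control value of slide 1 differed by less than the repeats of either pool. The last probe of the window was still above M 2 on all arrays, so the end of the enrichment was not covered there. The 13 probes within 10 kb outside the window had a median M of -1.27 and -1.01 in the food restricted pool and -1.52 and -1.38 in the control pool. Just outside the other windows, 8 probes at Zrsr1 had a median M between -1.75 and -1.46 over the arrays and 17 at Mcts2 between -0.91 and -0.11, while Nap1l5 and Slc38a4 had no probe there. The 17 probes beside Mcts2 had a D of 0.60 and 0.64 by the scanner files and of 0.16 and 0.21 by the value table's assignment.

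The place of highest enrichment, taken as the highest median of 3 neighbouring probes, was found separately on each array. At Nap1l5, Slc38a4, Mcts2 and Impact, 1 place was the highest, or tied for the highest, on all 4 arrays. At Zrsr1 no place was shared by all 4 arrays, and its highest places all lay inside the stretch.

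The question of the comparison was whether methylation differed in livers of fetuses from food restricted dams. Of the 15 regions at the 5 loci, 0 were called higher and 0 lower, against 4.55% and 0.643% of all 56653 regions. In 1 region, of 3 probes at Zrsr1 from 22870062 to 22870847, D passed the size with opposite signs (-1.22 and 0.68), as in 0.717% of all regions. Its immunoprecipitated signal was well above background at none of its probes in the control pool. By single probes, 5 of the 99 were higher and 1 lower, against 9.85% and 2.48% of all probes. A further 4, all at Zrsr1, had opposite signs, against 3.84% of all probes. Under the value table's assignment 1 region was called higher and 0 lower, against 2.52% and 1.03% of all regions. The region lay at Slc38a4 from 96886963 to 96888413, with D of 0.55 and 0.58. It spans the dip, and in the scanner files' assignment its D was -0.01 and 0.02.

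The 5 higher probes lay at 3 loci. At Mcts2 they were the highest probe, given above, with D of 0.66 and 0.76, and its neighbour at 152511974, with D of 0.65 and 0.97. That neighbour had M of 3.99 and 4.03 in the food restricted pool and 3.33 and 3.06 in the control pool. At Slc38a4 the probes at 96886963 (D of 0.52 and 0.63) and 96889493 (D of 0.53 and 0.54) lay 1 in each stretch. None of these 4 probes lay in a called region. The fifth, at 22870788 of Zrsr1, had M of -1.27 and -0.95 in the food restricted pool and -2.34 and -2.13 in the control pool, where its signal was not well above background. The single lower probe, at 22869337 of Zrsr1, was not well above background on any array. Under the value table's assignment 7 of the 99 probes were higher and 2 lower, against 5.77% and 4.2% of all probes. None of the 5 probes was called there, and the lower probe was called higher, with D of 1.17 and 0.91. The calls of single probes therefore depended on which source was right.

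A few probes differed on 1 array alone. The Impact probe at 13131143 had M of 2.39 and 2.83 in the food restricted pool and 1.06 and 2.61 in the control pool, so the control array of slide 1 stood apart. The Zrsr1 probe at 22882550 had -0.87 and -0.69 in the food restricted pool and 1.97 and -0.63 in the control pool, and again the control array of slide 1 stood apart. On that array the total DNA signal of both probes was not well above background, nor was the immunoprecipitated signal of the Zrsr1 probe.

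The region nearest to a call was the highest one of Mcts2, 5 probes from 152511305 to 152512383. Its median M was 3.78 and 4.03 in the food restricted pool and 3.33 and 3.06 in the control pool, so D, the difference of these medians, was 0.45 and 0.97 and the mean ratio 1.63-fold. With means over the probes in place of medians D was 0.37 and 0.49, or 0.43 on average against 0.71. Both food restricted arrays lay above both control arrays, by more than the repeats differed (0.25 between the food restricted arrays and -0.27 between the control arrays, slide 2 minus slide 1). With the value table's assignment D was -0.27 and 0.25. With D taken relative to all probes of like M, by taking off the running median, it was 0.01 and 0.38.

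The highest regions of the other loci differed less. At Zrsr1 (5 probes) D was 0.22 and 0.53, from M of 3.43 and 3.44 in the food restricted pool and 3.21 and 2.91 in the control pool. At Slc38a4 (5 probes) D was 0.33 and 0.29, from 3.67 and 3.47 in the food restricted pool and 3.34 and 3.18 in the control pool. Impact gave 0.04 and 0.37 over its single region of 10 probes. Nap1l5 gave -0.20 and 0.20 over 6 probes, so its direction differed between the slides. With the value table's assignment the mean D was -0.14 at Zrsr1, -0.17 at Slc38a4, 0.11 at Impact and -0.09 at Nap1l5.

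**Figure D2:**
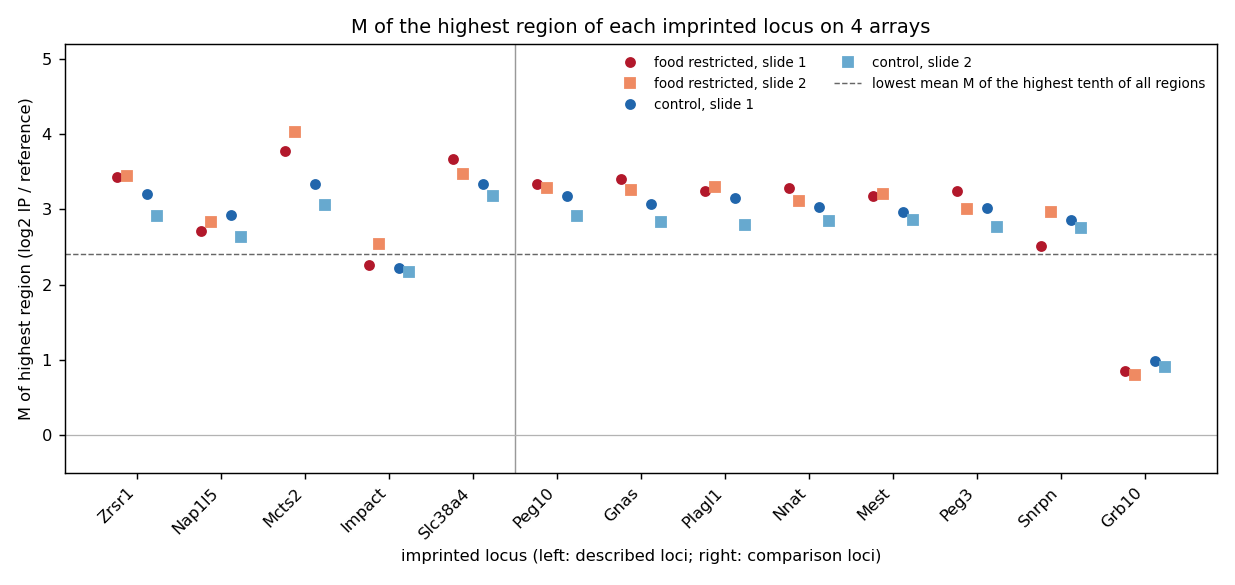
M (y axis, log2) of the region with the highest mean M at each imprinted locus on the 4 arrays, food restricted arrays to the left of control arrays; the 5 described loci stand left of the vertical line and 8 comparison loci right of it, and the dashed line marks the mean M of 2.41 above which lie the highest 10% of all regions. Mcts2 is the locus where the pools lie furthest apart. Impact has points on both sides of the dashed line, and its mean M of 2.30 lies below it.

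At these loci the food restricted pool was, by the scanner files, above the control pool mainly at the strongly enriched probes. By the value table's assignment it was not. Of the 48 probes above M 2 on all arrays, 39 had D above 0 on both slides, against 16 of the 51 others. Over the array as a whole the same was seen in 67.5% of the 65207 probes above M 2 and in 31.5% of the rest. That rest was not uniform by the scanner files. At the lowest level, a mean M of -2.62, the running median of D over all probes was 0.45 and 0.45. At a mean M of 1.00 it was -0.16 and -0.09. Under the value table's assignment 10 of the 48 had D above 0 in both pairs, against 27 of the 51 others. The median D of the 48 by the scanner files was 0.22 on slide 1 and 0.39 on slide 2, and that of all probes above M 2 was 0.19 and 0.32. Under the value table's assignment the median D of the 48 was -0.17 and 0.03, and that of all probes above M 2 was -0.15 and -0.01. After the median D of all probes of like mean M had been taken off, the 48 probes had a median D of -0.01 and 0.02. The difference at these loci was thus about that of other probes of the same level. Over all 99 probes the median D was 0.12 and 0.25, against 0.03 and 0.10 over all probes, and it was -0.06 and 0.14 under the value table's assignment.

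**Figure D3:**
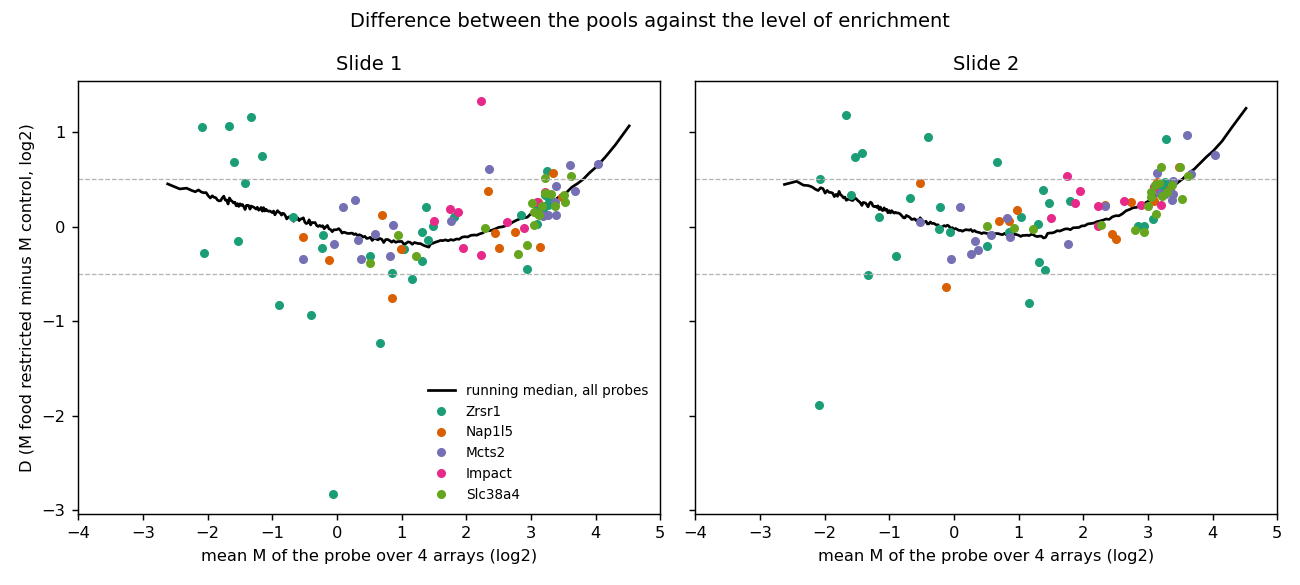
D (y axis, log2, food restricted minus control) of the 99 probes on slide 1 and slide 2 against their mean M over the 4 arrays (x axis, log2), coloured by locus; the black line is the running median of D over all probes and dashed lines mark D of 0.5 and -0.5. Above M 2 most probes gather around the black line, and the furthest from it is 1 Impact probe on slide 1 at D of 1.33. A few others above M 2 also lie off the line. On slide 1 these include an Mcts2 probe at D of 0.61 and a Zrsr1 probe at D of -0.45. Most probes far from the line have M below 1 and belong to Zrsr1.

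The 2 channels were also read separately, each centred on its own array median. At the 48 strongly enriched probes the immunoprecipitated signal of the food restricted pool differed from the control pool by -0.40 and -0.35, and the total genomic DNA signal by -0.35 and -0.39. All probes above M 2 showed -0.41 and -0.34 for immunoprecipitated DNA and -0.36 and -0.37 for total DNA. In the immunoprecipitated channel alone the mean D of the highest regions lay between -0.40 at Zrsr1 and -0.16 at Impact. None of the 15 regions was called there, against 3.33% of all regions higher and 1.72% lower. Relative to its array median, neither channel was higher in the food restricted pool at these probes. Under the value table's assignment the differences at the 48 probes were -0.08 and -0.01 for immunoprecipitated DNA and 0.02 and -0.05 for total DNA. Because each channel is centred on its own median and M on the median of the ratios, the differences of the channels do not add up to D. By the scanner files the immunoprecipitated channel was brighter over the whole array in the food restricted pool. Its median signal less background was 63.2 and 43.8 there, against 39.1 and 29.5 in the control pool. Under the value table's assignment the control pool was the brighter one. Its medians were then 39.1 and 63.2, against 29.5 and 43.8 in the food restricted pool. The part of this brightness in D was not tested.

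The loci were set beside 13 other imprinted loci whose approximate mm9 windows were taken from general knowledge. Of these, 8 had probes, all with a maternally methylated stretch. The highest regions nearest to the median of the described loci, by distance in M over the 4 arrays, belonged to Peg10 (0.18), a retrotransposon-derived gene needed in placenta, Gnas (0.24), which encodes a G protein subunit, and Plagl1 (0.26), a zinc finger gene. M at Peg10 was 3.34 and 3.28 in the food restricted pool and 3.18 and 2.91 in the control pool. At Gnas it was 3.41 and 3.25 in the food restricted pool and 3.08 and 2.83 in the control pool. At Plagl1 it was 3.25 and 3.30 in the food restricted pool and 3.15 and 2.79 in the control pool. None of the 29 regions at the comparison loci was called by the scanner files, against 4.55% of all regions higher and 0.643% lower. Under the value table's assignment 2 were higher and 0 lower, against 2.52% and 1.03% of all regions. The highest region in the Grb10 window stood apart at a mean M of 0.88 and may not be that locus's methylated stretch.

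Among all 56653 regions, the highest regions of the described loci stood between the 88.9th percentile of mean M (Impact) and the 98.0th (Mcts2). In all, 7 of the 15 regions belonged to the 10% of regions with the highest mean M, of which 12.4% were called higher. None of these 7 was.

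**Figure D4:**
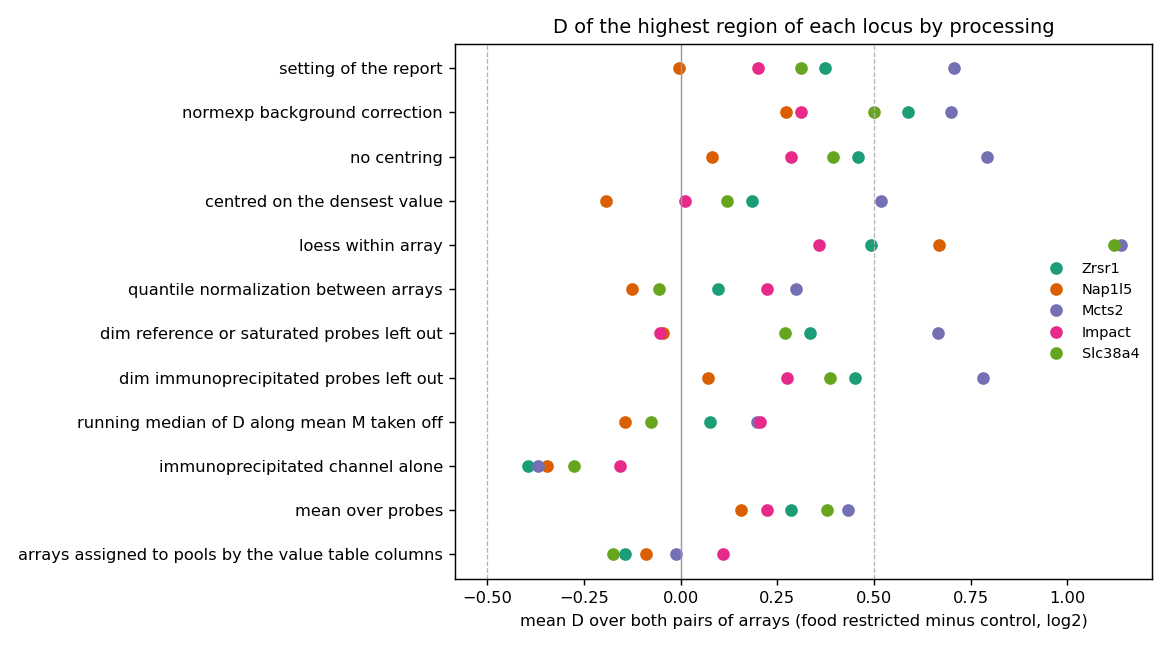
Mean D of the highest region of each locus (x axis, log2, food restricted minus control) under the setting of the report and 11 others (y axis); each point is 1 locus. Mcts2 lies furthest right in most settings, and all 5 loci lie left of 0 in the immunoprecipitated channel alone.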

How the data were processed

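DNA methylation was measured by immunoprecipitation and 2-colour tiling arrays in 1 food restricted and 1 control pool, with 2 arrays each, grouped by their labels. Per the submitters' processing notes, the scans were read by Feature Extraction (Agilent, version 10.5.1.1). The deposited processed intensity has local background subtracted and a dye factor applied, per the file headers; median and background intensity were deposited too. Positions are on mm9, per the file headers. The deposited value table holds log2 red over green with column medians between -0.23 and 0.24, uncentred and in one dye direction on all arrays, as found by setting it against the scanner files.

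From 420288 spots, 4474 control spots and 65 probes with an outlier flag were removed. M, D, regions and calls were computed in Python 3.11.15 with numpy 2.4.6 and pandas 2.3.3; normexp (offset 50) and loess used limma 3.58.1. By the scanner files both arrays of a slide had the same dye orientation, so a dye effect common to them cancels in D. Under the value table's assignment it would not cancel. Named regions are the highest and every called region of each locus, and the 3 nearest comparison loci. Other regions and single probes named in the text were chosen after their values were seen. The members, windows and lists were chosen with earlier results of these data known. The number of arrays, dim probes and the single pool per group limit precision. By the scanner files the 2 arrays of a pool also differ in dye orientation and slide. Their spread is technical and does not show that of animals.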

Additional observations from a re-analysis of the deposited data

How the results depend on the processing

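Of the 15 regions, 0 were called higher and 0 lower in the setting of the report. Regions called higher numbered 6 with loess within the array (8.52% of all regions), 2 with normexp correction (2.74%), and 1 each with no centring (7.19%), with dim immunoprecipitated probes left out (5.72%), at a size of 0.3 (12.2%), with no replicate block, D being taken across the slides (3.96%), and with the value table's assignment (2.52%). The highest region of Mcts2 was among them in each of these settings except the value table's assignment. Regions called lower numbered 1 with the running median taken off (1.01% of all regions) and 1 at a size of 0.3 (2.68%), both at Zrsr1 from 22881536 to 22882910. With 1 slide at a time, 1 to 3 regions were higher and 0 to 2 lower, against 12.4% to 13.8% higher and 3.75% to 4.49% lower of all regions. The median D over the probes of the loci, 0.19 as the mean of both slides, was 0.38 with loess, 0.0371 with quantile normalization, 0.039 with the value table's assignment, 0.0256 with the running median taken off, -0.00265 with centring on the densest value and -0.31 in the immunoprecipitated channel alone. Without either slide it ranged from 0.12 to 0.25. The mean D of the highest region of Mcts2 was above 0 in 12 of 14 alternatives, that of Zrsr1 in 12, Impact in 12, Slc38a4 in 10 and Nap1l5 in 6. Not all alternatives are independent of the report's setting. Taking D across the slides gives the same mean by construction, and each slide alone is a part of that mean. The cause of these changes was not tested. Arrays of 1 slide were paired in D, and with no replicate block the median D was 0.165. Leaving out probes with a dim total DNA or immunoprecipitated signal left 86 or 81 of the 99 probes. Dim probes of Zrsr1 limit its values outside the enriched stretch.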
